A study of Homo sapiens with 3 samples.

Results

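The nuclear-encoded subunits of the respiratory chain were followed in 3 stable PANC-1 lines. PANC-1 is an established human cell line from a pancreatic ductal adenocarcinoma. Members were chosen by symbol, as protein-coding genes of the NDUFA, NDUFB, NDUFC, NDUFS, NDUFV, SDH, UQCR, COX4I, COX5 to COX8 and ATP5 series in the platform annotation, without pseudogenes and assembly factors. The rule found 77 of the 19775 genes on the array: 33 of complex I, 3 of complex II, 6 of complex III, 17 of complex IV and 18 of complex V. One line expressed wild-type JMJD3, one a mutant JMJD3, and the control line carried the empty MSCV retroviral vector. JMJD3, the protein of KDM6B, removes repressive methyl groups from histone H3. The labels name neither the mutation nor whether a line is a clone or a pool, and they give no further treatment. Each line was read by 1 array from total RNA. The number of arrays therefore limits the precision, differences are given without replicate error, and no test could be made. In RNA from whole cultures, fewer cells of a type and less RNA per cell cannot be told apart.

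The respiratory chain of the inner mitochondrial membrane passes electrons from NADH through complex I, or from succinate through complex II, to ubiquinone, then through complex III and cytochrome c to complex IV, which reduces oxygen. Complexes I, III and IV pump protons, and complex V, the ATP synthase, uses the return of these protons to make ATP. Mitochondrial DNA encodes a few core subunits of complexes I, III, IV and V, and nuclear genes encode all other subunits, complex II included. Pancreatic ductal carcinoma cells are known for high glycolysis and still depend on mitochondrial respiration in part.

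Each value is the log2 signal of the probe set (the group of array probes for one transcript) that had the highest mean over the 3 arrays for its gene. Signals at or under the pooled median of all arrays, log2 5.48, were treated as not measured. A difference is one array's log2 signal minus another's. The sizes counted are 2-fold and 1.3-fold, which is 0.38 on the log2 scale. Over the 51 to 52 other measured probe sets of the members, the median gap between their difference and that of the brightest probe set of the same gene was 0.16 for wild-type JMJD3 against control, 0.21 for mutant JMJD3 against control and 0.18 for wild-type against mutant JMJD3. Many single-gene differences below are of about this size. Levels are not compared between genes, since each gene has its own probes.

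Of the 77 subunit genes, 71 were over the floor in every array and 6 under it in every array. The measured ones were bright, and 62 had a mean over log2 10.51, the 95th percentile of all signals. Median signals over the 77 were log2 12.19 with wild-type JMJD3, 11.99 with mutant JMJD3 and 11.89 in control. For 42 of the 77 the brightest probe set has an identifier ending in _s_at or _x_at, the mark of probes that also match other transcripts, and such a value can include related genes or pseudogenes. Another 7 genes that the rule would name (NDUFC2, NDUFS5, NDUFS8, UQCRH, UQCRHL and the readthrough genes NDUFC2-KCTD14 and ATP5MF-PTCD1) are only on probe sets listed for several genes and were given no value.

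The labels were checked on the same arrays. Probe set 1556067_a_at of KDM6B read log2 6.73 with wild-type JMJD3, 6.45 with mutant JMJD3 and 5.53 in control, while its brightest probe set, 41387_r_at, read 7.66, 7.65 and 7.60. Of its other probe sets, 1556066_at read 6.75, 6.51 and 6.02, 41386_i_at read 6.99, 6.88 and 6.99, and 213146_at was under the floor at 5.12 in all arrays. Whether the introduced sequence covers any of these probe sets is not stated. The KDM6B values thus do not settle how far JMJD3 was raised. The epithelial keratin genes KRT8 (11.97, 10.67 and 11.76, in the same order) and KRT18 (13.47, 12.83 and 13.40) were bright, and so was the mesenchymal gene VIM at 13.34, 13.28 and 13.27. KRT19, a keratin of duct cells, was 2.45 above control with wild-type JMJD3 and 2.18 above control with mutant JMJD3 on the log2 scale. KRT7 read 10.80, 9.16 and 9.66, and EPCAM, an epithelial adhesion gene, read 5.83, 7.07 and 6.17, highest with mutant JMJD3. Mesenchymal COL1A1 read 10.69, 10.38 and 10.16. Of the other markers, PTPRC, CD3E, CD14, CDH5, CPA1, INS, GCG, ALB and COL1A2 were under the floor in all arrays, and PECAM1 read 6.28, 6.27 and 6.28. The epithelial markers thus differed between lines and not all in one order, and their part in the differences below was not tested.

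With wild-type JMJD3, subunit genes of all 5 complexes tended to lie a little above control. Of the 71 measured, 63 (88.7%) were above control, 5 below and 3 equal, beside 54.4% of all 12697 measured genes above control and 56.3% of the 1743 genes over log2 10.51. The median difference was 0.22, or 1.16-fold, against 0.05 over all measured genes and 0.06 over those 1743. None reached 2-fold, where the share of all genes was 0.953% for higher and 1.31% for lower. By 1.3-fold 12 were higher, which is 16.9% of the members and near the 19.9% of all genes, and 1 was lower (1.41%, against 16.5% of all genes). The share of members higher by 1.3-fold was thus near that of the array, and the share lower was smaller. With arrays scaled to one median, 93.0% of the members and 66.3% of all genes were above control, and after quantile normalization 87.3% and 65.4%. Without shared probe sets 3 members were lower by 1.3-fold.

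The wild-type array gave the highest of the 3 values for 55 of the 71 genes (77.5%), where it did so for 45.2% of all genes over log2 10.51. The mutant array gave the highest value for 10 members (30.5% of those bright genes) and the control array for 2 (18.6%). Both ATP5F1E (13.67) and ATP5PF (12.18) read the same in all 3 arrays, as did 1.95% of the bright genes.

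With mutant JMJD3 the members lay evenly around control. Of 71, 31 (43.7%) were above control, 35 below and 5 equal, beside 45.9% of all 12707 measured genes above and 41.2% below, and the median was 0.00 for the members and 0.00 for all genes. None reached 2-fold, where 2.98% of all genes were higher and 0.535% lower. By 1.3-fold 3 were higher (4.23%, against 17% of all genes) and 5 lower (7.04%, against 9%). Without shared probe sets 7 were higher, 1 of them past 2-fold. With arrays scaled to one median, 50.7% of the members and 58.8% of all genes were above control.

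Set directly against mutant JMJD3, wild-type JMJD3 gave higher values for 58 of 71 members (81.7%, against 49.7% of all 12829 measured genes), with a median of 0.18 against 0.00 over all genes. In 10 members wild-type was below mutant, against 40.5% of all genes. By 1.3-fold 20 members were higher (28.2%, against 20.9% of all genes) and 1 lower (1.41%, against 23.5%). With the median over probe sets, and also without shared probe sets, 5 members were lower, and without shared probe sets wild-type exceeded mutant in 66.0% of the members and 45.8% of all genes. NDUFB2 and NDUFV3 were the 2 past 2-fold, where 2.61% of all genes were higher and 6.2% lower. With arrays scaled to one median, wild-type exceeded mutant in 85.9% of the members and 59.5% of all genes. After quantile normalization these shares were 78.9% and 61.5%, and the medians 0.17 for the members and 0.0867 for all genes. The comparisons with control share the control array, and the direct one shares an array with each.

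**Figure D1:**
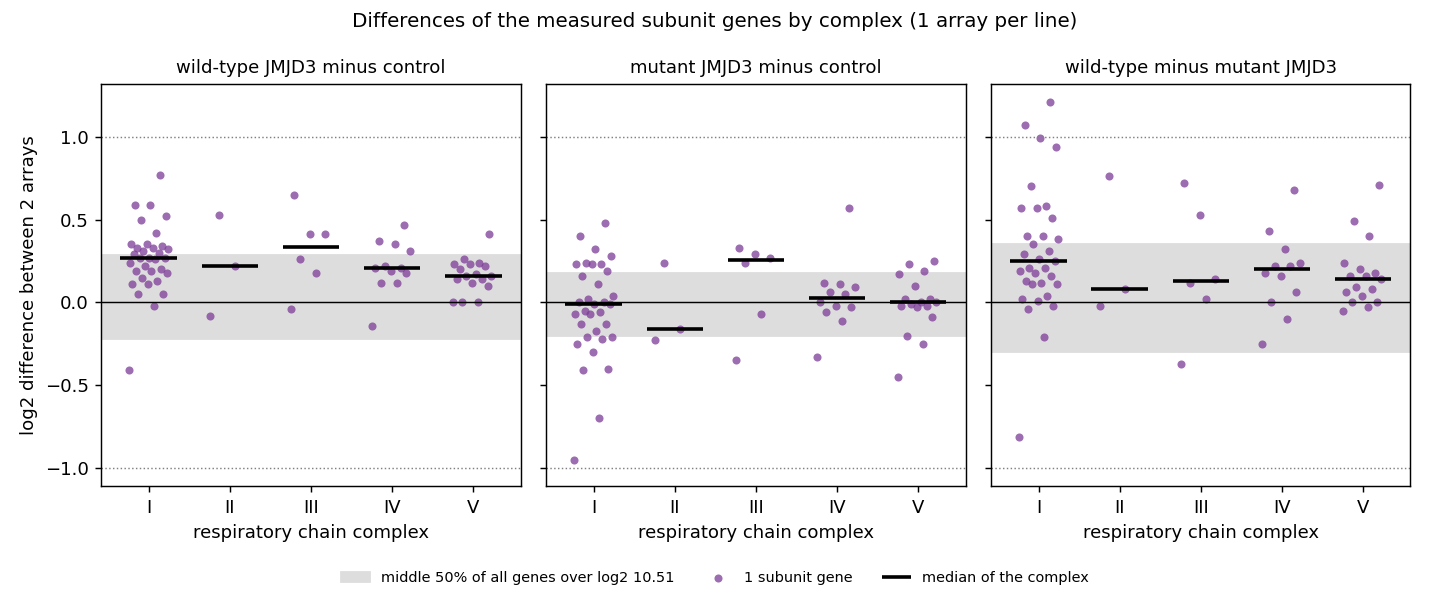
Log2 difference of each measured subunit gene (points) by complex, for wild-type JMJD3 minus control, mutant JMJD3 minus control and wild-type minus mutant JMJD3, with the median of each complex as a bar and the middle 50% of all genes over log2 10.51 as a grey band (1 array per line; dotted lines mark 2-fold). In the first panel 63 of 71 points lie above 0, and in the second they lie around 0 with NDUFB2 lowest at -0.95.

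Promoters of 6 members are shown because these members stood at the ends of the differences or hold the letters of a well known element of respiratory chain promoters, that of the transcription factor NRF1. UQCRC1, NDUFA9 and NDUFA3 were among the members most above control with wild-type JMJD3 and hold these letters. NDUFV3 was the most above control with wild-type JMJD3, NDUFB2 the most below control with mutant JMJD3, and NDUFA5 went the opposite way to most members; these 3 do not hold them in the bases shown. The sequences are RefSeq's on GRCh38.p14, 5′ to 3′, the 250 bases before the annotated start, with matches to the NRF1 letters GCGCANGCG on either strand in capitals.
UQCRC1, chr3:48609647-48609896, minus strand: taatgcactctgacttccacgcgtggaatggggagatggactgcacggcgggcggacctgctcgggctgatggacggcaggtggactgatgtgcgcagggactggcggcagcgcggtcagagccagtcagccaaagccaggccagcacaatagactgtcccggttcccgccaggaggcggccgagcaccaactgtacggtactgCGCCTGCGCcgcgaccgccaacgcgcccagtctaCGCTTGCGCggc
NDUFA9, chr12:4648864-4649113, plus strand: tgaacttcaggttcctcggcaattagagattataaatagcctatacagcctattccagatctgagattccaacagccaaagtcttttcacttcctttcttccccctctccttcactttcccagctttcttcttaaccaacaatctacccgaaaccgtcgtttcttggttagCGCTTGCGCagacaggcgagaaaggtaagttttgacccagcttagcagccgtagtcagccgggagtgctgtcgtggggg
NDUFA3, chr19:54102605-54102854, plus strand: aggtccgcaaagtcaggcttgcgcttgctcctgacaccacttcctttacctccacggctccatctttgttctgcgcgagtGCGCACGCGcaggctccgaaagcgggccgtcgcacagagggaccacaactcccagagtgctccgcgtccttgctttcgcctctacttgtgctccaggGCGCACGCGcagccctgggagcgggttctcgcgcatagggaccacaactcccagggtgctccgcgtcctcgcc
NDUFV3, chr21:42893059-42893308, plus strand: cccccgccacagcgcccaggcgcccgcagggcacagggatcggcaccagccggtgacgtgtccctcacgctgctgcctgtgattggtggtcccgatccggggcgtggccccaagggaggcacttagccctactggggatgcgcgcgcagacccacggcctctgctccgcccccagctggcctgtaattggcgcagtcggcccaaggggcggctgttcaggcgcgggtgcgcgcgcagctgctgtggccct
NDUFB2, chr7:140696458-140696707, plus strand: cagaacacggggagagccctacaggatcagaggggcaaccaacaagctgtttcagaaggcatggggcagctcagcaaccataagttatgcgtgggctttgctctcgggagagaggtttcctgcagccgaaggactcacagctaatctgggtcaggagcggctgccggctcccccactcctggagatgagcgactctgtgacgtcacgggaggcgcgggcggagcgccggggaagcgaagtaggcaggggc
NDUFA5, chr7:123601652-123601901, minus strand: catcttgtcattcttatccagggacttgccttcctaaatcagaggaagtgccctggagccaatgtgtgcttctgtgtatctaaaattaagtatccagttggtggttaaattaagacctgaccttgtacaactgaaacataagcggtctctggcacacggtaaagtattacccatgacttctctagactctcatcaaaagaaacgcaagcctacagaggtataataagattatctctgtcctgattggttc

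Of the 77 members, 66 matched a promoter in that table, each covering 250 bases before to 50 after the start. The NRF1 letters were in 22 of the 66 (33.3%), against 11.02% of 15843 protein-coding promoters of the same length. The letters CCGGAAG, the core bound by ETS factors such as GABPA, were in 18 members (27.3%, against 14.2%), and the YY1 letters AANATGGCG in 13 (19.7%, against 4.81%). The CCAAT letters were in 34.8% of the members and 36.4% of all promoters, and the TATAAA letters in 10.6% and 9.63%. Both strands were searched, matches to different motifs could overlap, and the median share of G and C was 61.2% in the members and 62.7% in all promoters. For wild-type against mutant JMJD3 the members had medians of 0.12 with and 0.21 without the NRF1 letters, 0.35 with and 0.16 without the YY1 letters, and 0.24 with and 0.145 without CCGGAAG. Members with and without the NRF1 letters had median differences for wild-type JMJD3 against control of 0.18 over 21 measured genes and 0.26 over 41. For mutant JMJD3 against control these medians were 0.00 and -0.01. For the YY1 letters the wild-type medians were 0.33 over 13 genes with and 0.21 over 49 without, and for CCGGAAG 0.26 over 18 and 0.195 over 44. Whether members with and without a motif differ was not tested. A match describes letters in a window and not a bound site.

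Complex I takes electrons from NADH at the tip of its peripheral arm (the N module), hands them to ubiquinone in the Q module, and pumps protons in its membrane arm. Its 33 genes had a median difference of 0.27 for wild-type JMJD3 against control, -0.01 for mutant JMJD3 against control and 0.25 for wild-type against mutant. With wild-type JMJD3, 31 were above control (93.9%, against 54.4% of all genes). By 1.3-fold 6 of these were higher (18.2%, against 19.9% of all genes). With mutant JMJD3, 13 were above control (39.4%, against 45.9% of all genes) and 18 below (54.5%, against 41.2%).

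In the N module, NDUFV3, an accessory subunit of the NADH-oxidising tip, read log2 10.37 with wild-type JMJD3, 9.30 with mutant JMJD3 and 9.60 in control. Wild-type JMJD3 stood 1.71-fold over control and 2.10-fold over mutant, the largest excess over control among the members. The other measured probe set of NDUFV3, 226209_at, read 7.89, 7.40 and 7.35, so it was also highest with wild-type JMJD3 while mutant and control were alike. Catalytic subunits of the module differed less. NDUFV1, which binds the flavin, read 11.32 with wild-type JMJD3, 11.07 with mutant JMJD3 and 11.05 in control. NDUFV2, an iron-sulfur subunit, read 11.71, 11.36 and 11.41. NDUFS1, the largest iron-sulfur subunit, read 11.02, 10.64 and 10.71, and its probe set 236356_at went the other way at 7.52, 8.19 and 7.79. All 3 catalytic genes were thus highest with wild-type JMJD3 at their brightest probe sets, by 0.27 to 0.31 over control.

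NDUFA6 read 12.19 with wild-type JMJD3, 11.61 with mutant JMJD3 and 11.86 in control, 1.49-fold apart between wild-type and mutant. NDUFA7 read 10.22, 10.21 and 9.89, and NDUFS4 read 10.93, 10.97 and 10.74, so that both JMJD3 arrays lay above control. NDUFS4 and NDUFA7 are accessory subunits of the same arm. NDUFA2 read 11.97, 11.76 and 11.65, and NDUFA12 12.55, 12.37 and 12.50. NDUFS6, a zinc-binding accessory subunit, was level at 13.28, 13.24 and 13.30.

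The Q module held members at both ends of the range. NDUFA9, a nucleotide-binding subunit near the joint of the arms, read log2 10.98 with wild-type JMJD3, 9.99 with mutant JMJD3 and 10.39 in control. It stood 1.51-fold over control with wild-type JMJD3, 1.32-fold under control with mutant JMJD3 and 1.99-fold apart between them. NDUFS3, a core subunit of this module, read 12.02, 11.32 and 11.73, and NDUFS7, which carries the last iron-sulfur cluster before ubiquinone, read 10.30, 10.01 and 9.78, while its dim probe set 242168_at read 5.63 in all arrays. NDUFA5, an early-assembled accessory subunit, went the opposite way, with 11.08 for wild-type JMJD3, 11.89 for mutant JMJD3 and 11.49 for control. It was the 1 member past 1.3-fold below control with wild-type JMJD3, at 1.33-fold, and stood 1.75-fold lower in wild-type than in mutant. Its other probe set was under the floor in all arrays, so these values rest on 1 probe set.

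All 7 genes of the proximal membrane arm were above control with wild-type JMJD3 and above mutant, beside 54.4% and 49.7% of all genes. NDUFA3 read 11.62 with wild-type JMJD3, 11.31 with mutant JMJD3 and 11.03 in control, 1.51-fold over control in the first. NDUFA1, an X-linked subunit needed early in assembly, read 12.55, 12.36 and 12.13. NDUFA13, also known as GRIM-19, read 12.52, 12.01 and 12.18, with the mutant array lowest. The remaining 4, NDUFA8, NDUFA10, NDUFA11 and NDUFC1, were 0.11 to 0.35 above control with wild-type JMJD3.

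The NDUFB subunits are accessory subunits of the distal membrane arm. At the brightest probe sets all 11 genes were above control with wild-type JMJD3, by 0.11 to 0.50, beside 54.4% of all genes. With mutant JMJD3 the arm held the lowest differences of the whole set. NDUFB2 read log2 11.97 with wild-type JMJD3, 10.76 with mutant JMJD3 and 11.71 in control, so mutant was 1.93-fold under control and wild-type 2.31-fold over mutant. Its probe set 218201_at had the same order with 11.02, 9.89 and 10.58. NDUFB9 read 13.28, 12.34 and 13.04, which put mutant 1.62-fold under control, on its single probe set. Opposite to them, NDUFB1 read 12.98, 13.19 and 12.71 and was 1.39-fold above control with mutant JMJD3, but its other measured probe set differed by -0.05. NDUFB7 (11.28, 10.71 and 10.78), NDUFB8 (12.40, 12.00 and 12.21) and NDUFB10 (12.24, 11.67 and 11.89) were highest with wild-type and lowest with mutant JMJD3. At their brightest probe sets NDUFB3, NDUFB4, NDUFB6 and NDUFB11 lay within 0.04 of control with mutant JMJD3. The dim probe set 228940_at of NDUFB4 read 6.26, 7.26 and 6.96, lowest with wild-type and highest with mutant JMJD3. NDUFB5 read 11.73, 11.75 and 11.51. NDUFAB1, the mitochondrial acyl carrier protein found in both arms, read 12.90, 12.64 and 12.85.

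**Figure D2:**
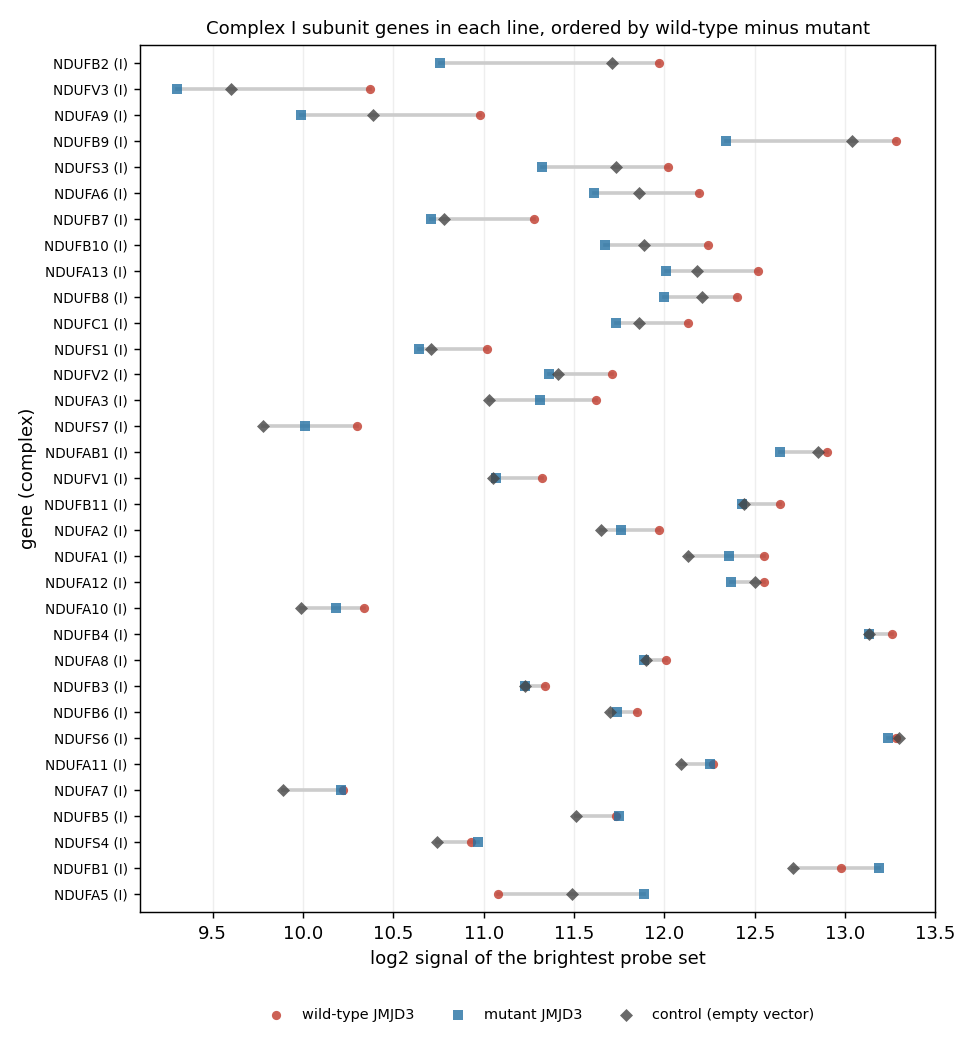
Log2 signal of the 33 complex I subunit genes at their brightest probe sets in the wild-type JMJD3, mutant JMJD3 and control arrays, ordered by wild-type minus mutant (1 array per line, no error can be given). The wild-type array is highest for 28 of 33 genes, NDUFB2 and NDUFV3 show the widest gaps, and NDUFA5 at the bottom has the reverse order.

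Complex II, succinate dehydrogenase, is also an enzyme of the tricarboxylic acid cycle. SDHA, its flavoprotein, was nearly level at log2 12.43 with wild-type JMJD3, 12.35 with mutant JMJD3 and 12.51 in control. SDHC, a membrane anchor, read 10.49, 9.73 and 9.96, 1.44-fold over control and 1.69-fold over mutant with wild-type JMJD3. Its 6 measured probe sets differed in direction. In the 4 with shared probes mutant was under control by 0.23 to 0.62, while 238191_at read 7.02, 7.84 and 7.16 with mutant the highest. SDHD, the other anchor, read 11.43, 11.45 and 11.21. Without shared probe sets the complex median was 0.46 for mutant JMJD3 against control and -0.42 for wild-type against mutant, where it was -0.16 and 0.08 with them.

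Complex III, the cytochrome bc1 complex, had the highest median over control in both JMJD3 arrays, 0.335 in the wild-type and 0.255 in the mutant, over 6 genes. Without shared probe sets the mutant median was 0.115, under that of complex II. UQCRC1, a core protein, read log2 11.45 with wild-type JMJD3, 10.73 with mutant JMJD3 and 10.80 in control, which is 1.57-fold over control in the first. UQCRC2, its partner, read 12.68, 12.66 and 12.42, so in the mutant array UQCRC1 was near control and UQCRC2 above it. Its dim probe set 241755_at went the other way at 4.97, 6.55 and 5.89. The small subunits UQCR10 (12.00, 11.88 and 11.59) and UQCR11 (12.27, 12.13 and 11.86) were above control in both JMJD3 arrays, but UQCR11 at 223613_at read 7.45, 6.84 and 7.18. UQCRQ, the ubiquinone-binding small subunit, was lowest with mutant JMJD3 at 13.20, 12.67 and 13.02, and UQCRB was highest there at 13.15, 13.52 and 13.19. The probe sets 209065_at and 209066_x_at of UQCRB also read highest with mutant JMJD3, by 0.53 and 0.33 over control.

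Complex IV, cytochrome c oxidase, has ubiquitous subunits and isoforms restricted to certain tissues. The 10 ubiquitous genes read between log2 11.99 and 13.93 in all arrays. COX6A1, the widely expressed isoform of its subunit, read 13.93 with wild-type JMJD3, 13.25 with mutant JMJD3 and 13.58 in control, and wild-type exceeded mutant 1.60-fold. COX6B1, which faces the intermembrane space, read 12.42, 11.99 and 12.05. COX4I1 (13.91, 13.67 and 13.69), the subunit by which ATP inhibits the enzyme, and COX5A (13.05, 12.83 and 12.86) were higher with wild-type JMJD3 alone. COX5B read 13.34, 13.02 and 13.13, and COX8A 13.01, 12.79 and 12.70. COX7B (13.48, 13.32 and 13.27), COX7C (13.83, 13.77 and 13.71) and COX7A2 (12.89, 12.89 and 12.77) differed from control by at most 0.21, but the dim probe set 239252_at of COX7B read 7.16, 8.14 and 7.04 and was highest with mutant JMJD3. COX6C was the exception, at 13.64 with wild-type JMJD3, 13.89 with mutant JMJD3 and 13.78 in control.

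COX7A2L, which joins complexes III and IV into supercomplexes, was the complex IV gene most above control in both JMJD3 arrays. It read log2 11.99 with wild-type JMJD3, 12.09 with mutant JMJD3 and 11.52 in control, or 1.39-fold and 1.48-fold over control on its single probe set. Of the tissue-restricted isoforms only COX4I2, the oxygen-regulated counterpart of COX4I1, was over the floor, at 6.37, 6.19 and 6.19. COX6A2 and COX7A1, the heart and skeletal muscle isoforms, and COX6B2, COX7B2 and COX8C, known mainly from testis, read between 2.89 and 5.30 in all arrays. Each of these partners of a bright ubiquitous gene was under the floor, so no isoform switch was detectable on these probe sets.

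Another 3 subunit genes that now carry complex IV symbols fall outside the symbol rule and are given for comparison. COXFA4, formerly NDUFA4, read log2 13.01 in all 3 arrays. COXFA4L2, formerly NDUFA4L2, a hypoxia-induced relative, read 7.01 with wild-type JMJD3, 6.44 with mutant JMJD3 and 7.42 in control, with mutant 1.97-fold under control. COXFA4L3, the inflammation-induced relative formerly known as C15orf48, read 5.50, 7.22 and 4.40, which put mutant at least 3.34-fold over control.

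Complex V consists of the catalytic F1 head, a ring of c subunits in the membrane, a peripheral stalk and small membrane subunits. At the brightest probe sets with wild-type JMJD3, 14 of 17 measured genes were above control, 3 were equal and none was below. Any negative difference was seen in 34.2% of all genes. The median was 0.16 in the wild-type array and 0.00 in the mutant array. Between wild-type and mutant it was 0.14, and 0.00 without shared probe sets. ATP5F1A, the alpha subunit, read log2 13.42 with wild-type JMJD3, 13.22 with mutant JMJD3 and 13.25 in control. ATP5F1B, the catalytic beta subunit, read 13.44, 12.95 and 13.20, 1.40-fold apart between wild-type and mutant. At their brightest probe sets, ATP5F1C and ATP5F1D, of the central stalk, were above control in both JMJD3 arrays. ATP5F1C read 11.52, 11.48 and 11.29, and ATP5F1D 10.61, 10.43 and 10.20. The shared probe sets 205711_x_at and 208870_x_at of ATP5F1C had the same order. Its dim unshared probe set 214132_at read 5.57, 6.41 and 6.07, lowest with wild-type JMJD3. The other probe set of ATP5F1D, 203926_x_at, was nearly level at 8.29, 8.24 and 8.29.

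The 3 c-ring genes encode the same mature protein. ATP5MC1, the one known to be regulated with energy demand, read log2 11.62 with wild-type JMJD3, 10.91 with mutant JMJD3 and 11.36 in control, so mutant was 1.37-fold under control. ATP5MC3 went the same way with 13.32, 12.92 and 13.12, and in its probe set 207508_at with 13.02, 12.53 and 12.77, but not in 228168_at (6.79, 7.57 and 6.75). ATP5MC2 was level at 13.03, 12.95 and 12.93. Between wild-type and mutant JMJD3 the excess was thus 1.64-fold for ATP5MC1, 1.32-fold for ATP5MC3 and 1.06-fold for ATP5MC2.

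The 4 peripheral stalk genes differed from control by 0.16 at most in either JMJD3 array, with ATP5PO at 12.52, 12.46 and 12.36 and ATP5PB at 12.97, 12.88 and 12.97. ATP5MG, ATP5MJ and ATP5MK, small membrane subunits, were 0.14 to 0.23 above control with wild-type JMJD3 and within 0.02 of it with mutant JMJD3. ATP5MG had another probe set that stood apart, 208745_at, at 9.97, 10.76 and 9.46, with the mutant array highest. The unshared probe set 202279_at of ATP5MJ read 10.52, 10.15 and 9.72, 0.80 above control in the wild-type array and 0.43 in the mutant array. ATP5ME read 11.75, 11.78 and 11.53. ATP5IF1, which blocks the synthase from running in reverse, read 10.18, 10.23 and 10.06. ATP5MF was under the floor at 4.96, 4.94 and 4.94 on the only probe set listed for it alone.

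**Figure D3:**
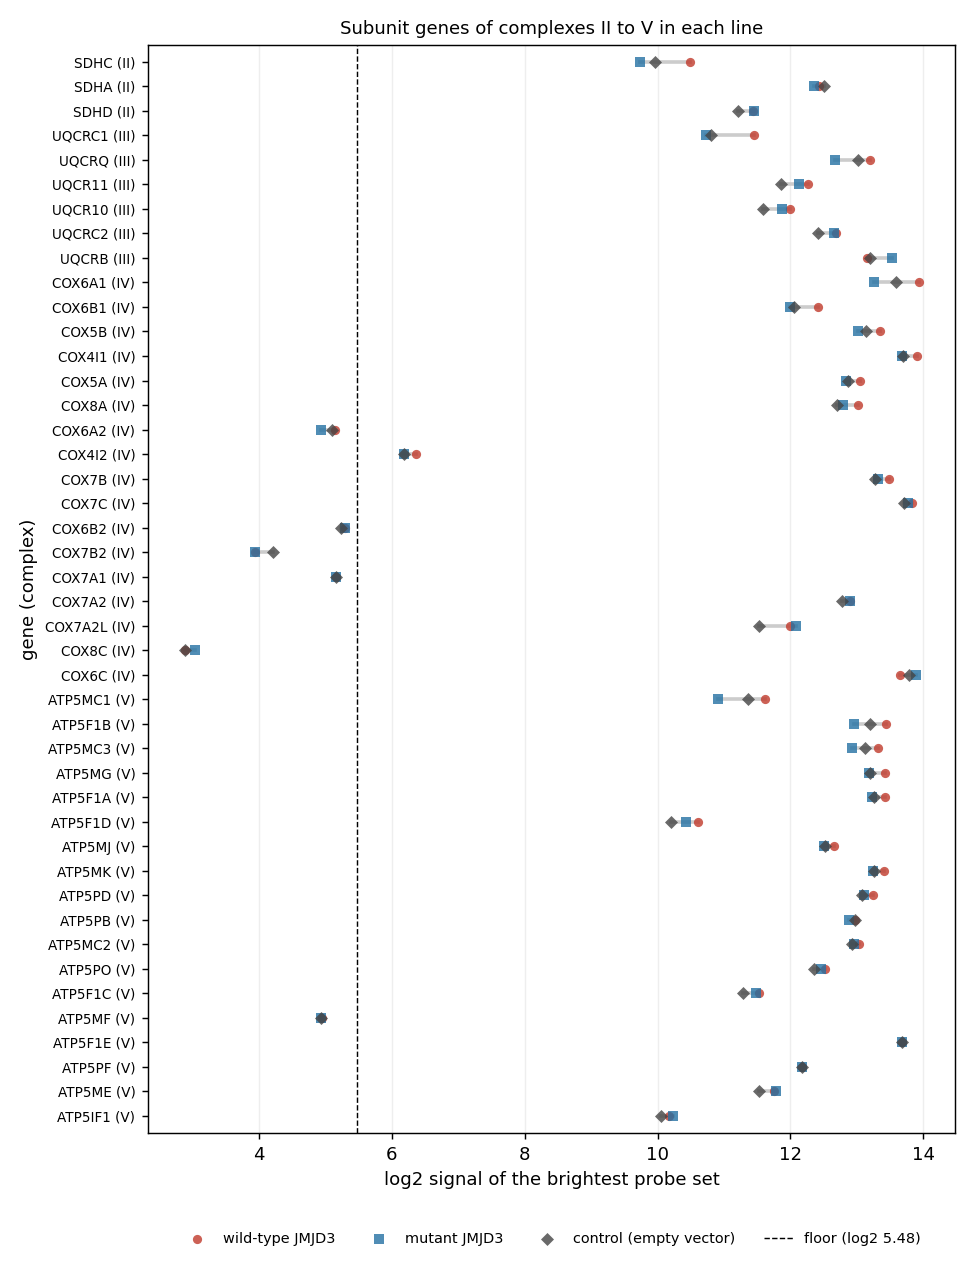
Log2 signal of the 44 subunit genes of complexes II to V at their brightest probe sets in the wild-type JMJD3, mutant JMJD3 and control arrays, by complex and then by wild-type minus mutant (1 array per line; the dashed line is the floor, log2 5.48). The tissue-restricted COX isoforms other than COX4I2, and ATP5MF, lie under the floor, and COX6A1, ATP5MC1, SDHC and UQCRC1 show wide gaps between wild-type and mutant.

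Probe sets of one gene bear on how far single values can be read. With wild-type JMJD3 against control, 35 of 51 other measured probe sets of the members went the same way as the brightest one and 6 the opposite way. With mutant JMJD3 against control, 27 of 52 went the same way and 17 the opposite way. For wild-type against mutant JMJD3 35 of 52 went the same way and 11 the opposite way, and 10% of the gaps to the brightest probe set were over 1.048. Without probe sets that share probes, 52 members were measured for wild-type JMJD3 against control, and 40 of them were above control (76.9%, against 50.2% of all genes in that setting), with a median of 0.22. For mutant JMJD3 against control 28 of 53 were above control (52.8%, against 47.5% of all genes), with a median of 0.02. For wild-type against mutant 35 of 53 were above (66.0%, against 45.8%), with a median of 0.16.

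Other mitochondrial genes were set beside the subunits. Assembly factors of the 5 complexes were above control with wild-type JMJD3 in 37 of 51 measured genes (72.5%, against 54.4% of all genes). Their median was 0.28. With mutant JMJD3 25 of 51 assembly factors were above control (49.0%, against 45.9% of all genes), with a median of 0.00. Of these TACO1, which activates translation of a complex IV subunit, read log2 9.90 with wild-type JMJD3, 8.85 with mutant JMJD3 and 9.12 in control. LRPPRC, which stabilises mitochondrial mRNAs, went the other way at 10.63, 11.38 and 11.34. SDHAF3, an assembly factor of complex II, read 8.73, 9.87 and 8.74 and was 2.19-fold above control with mutant JMJD3. SDHAF4, of the same complex, read 7.26, 7.67 and 6.72.

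The mitochondrial ribosome translates the subunits encoded in mitochondrial DNA. It lay above control with wild-type JMJD3 in 66 of 75 measured genes (88.0%, against 54.4% of all genes), with a median of 0.33. With mutant JMJD3 the median was -0.01 and 31 of 75 were above control (41.3%, against 45.9% of all genes). MRPL57 (11.52 with wild-type JMJD3, 11.20 with mutant JMJD3 and 10.78 in control) and MRPL2 (8.01, 7.10 and 7.31) were highest over control in the first. Genes of the cytosolic ribosome, a list added after the values were seen, had medians of 0.03 with wild-type JMJD3 (36 of 53 above control) and 0.11 with mutant JMJD3 (48 of 52). Tricarboxylic acid cycle genes were above control in 10 of 13 with wild-type JMJD3 (76.9%, against 54.4% of all genes), with a median of 0.32. With mutant JMJD3 8 of 13 were above control (61.5%, against 45.9% of all genes), with a median of 0.12. CS, citrate synthase, read 11.30, 11.11 and 10.79, while SUCLA2, a subunit of succinyl-CoA ligase, was lowest with wild-type JMJD3 at 9.75, 10.51 and 10.36.

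Of 7 measured genes encoded in mitochondrial DNA, 5 were above control with wild-type JMJD3 (71.4%, against 54.4% of all genes). With mutant JMJD3 1 was above control (14.3%, against 45.9% of all genes). For all 7 wild-type exceeded mutant, as it did for 49.7% of all genes. ND2, a complex I subunit, read log2 13.89 with wild-type JMJD3, 13.43 with mutant JMJD3 and 13.55 in control. ND6, the complex I subunit read from the other DNA strand, read 10.03, 9.07 and 10.41, with mutant 2.53-fold under control, past 2-fold as 0.535% of all genes were. COX1 read 14.70, 14.54 and 14.76, and ATP6 read 14.31, 14.13 and 14.14. Cytochrome c (CYCS) read 12.60, 13.19 and 13.06, lowest with wild-type JMJD3. CYC1, the cytochrome c1 subunit of complex III, whose symbol lies outside the rule, was highest there at 12.13, 11.33 and 11.47.

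Regulators of mitochondrial genes were below control in 12 of 20 with wild-type JMJD3 (against 34.2% of all genes), with a median of -0.09. With mutant JMJD3 14 of 20 were above control (against 45.9% of all genes), with a median of 0.09. PPARGC1A, the coactivator PGC-1 alpha, read log2 6.88 with wild-type JMJD3, 8.75 with mutant JMJD3 and 7.71 in control, so it was 1.78-fold under control with wild-type and 2.06-fold over control with mutant. GABPA, an ETS factor of respiratory chain promoters, had the same order at 7.86, 9.19 and 8.47. NRF1 read 8.17, 7.88 and 7.86. POLRMT, the mitochondrial RNA polymerase, was highest with wild-type JMJD3 at 10.08, 9.05 and 9.27, and TFAM, which packages mitochondrial DNA, read 10.37, 10.72 and 10.82. PPARGC1A and GABPA were thus lowest in the array where most subunit genes were highest, and NRF1 and POLRMT were highest there. Genes of mitochondrial dynamics and mitophagy were above control in 6 of 11 with wild-type JMJD3 (54.5%, against 54.4% of all genes). With mutant JMJD3 5 of 11 were above control (45.5%, against 45.9%). The medians were 0.09 and -0.01, and both shares were near those of all genes. BNIP3L, a mitophagy receptor, read 10.47, 11.49 and 11.34. The 4 genes listed as a hypoxic switch were PDK1, LONP1, HIGD1A and BNIP3, and BNIP3 was also counted with dynamics and mitophagy. Of these 4, 2 were above control in the wild-type array and 0 in the mutant array, against 54.4% and 45.9% of all genes. Their medians were -0.135 in the wild-type array and -0.295 in the mutant array. Among them PDK1, a kinase that keeps pyruvate out of the tricarboxylic acid cycle, read 9.34, 9.80 and 10.10.

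**Figure D4:**
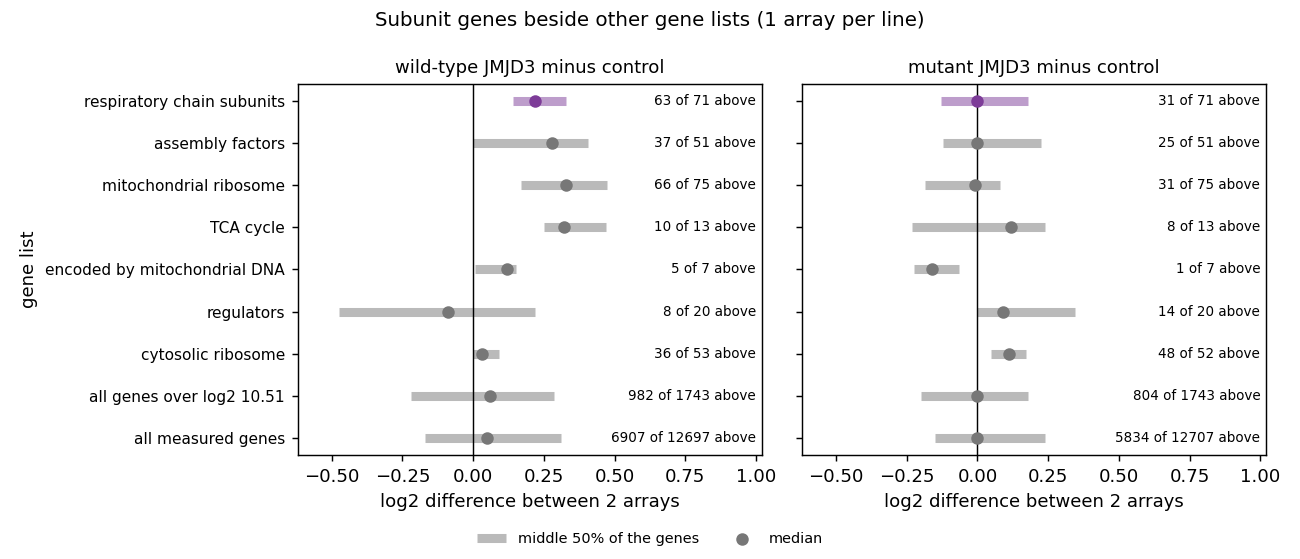
Median log2 difference (points) and middle 50% of genes (bars) for the respiratory chain subunits and other gene lists, for wild-type JMJD3 minus control and mutant JMJD3 minus control, with the count of genes above control (1 array per line). The subunits, assembly factors, mitochondrial ribosome and tricarboxylic acid cycle (TCA) genes have medians of 0.22 to 0.33 with wild-type JMJD3, and the cytosolic ribosome 0.03.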

How the data were processed

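Total RNA of 3 stable PANC-1 lines was hybridised to Affymetrix arrays, 1 per line. The deposited values are log2 signals per probe set, and the submitters' processing notes name MAS5 without settings. How arrays were normalized against each other was not given in the sources used here. The sorted deposited log2 columns differ by at most 0.14, and 21.0% of the 54613 probe sets hold one value in all 3 arrays, so equal values do not show equal transcript levels. Platform annotation gave 1 gene to 41091 probe sets, several to 1801 (unnamed here) and none to 11721. RefSeq's table of GRCh38.p14 served for gene types and chromosomes.

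The probe set with the highest mean stood for its gene, and signals were floored at the pooled median. Members and lists were chosen with earlier results of these data known. Genes named are, per comparison, the members past 2-fold, the 8 largest differences on each side, the extremes of each complex, isoform partners, core subunits, members with conflicting probe sets and up to 4 genes of each other list; further genes were added to describe each group. The bright class over log2 10.51, the motif letters and the promoters printed were chosen after the values were seen. Alternatives were 2 scalings, 2 other floors, an offset, the median over probe sets and no shared probe sets. The calculation was tested on simulated data. Computation used pandas 2.3.3, numpy 2.4.6, matplotlib 3.10.9 and Python 3.11.15.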

Additional observations from a re-analysis of the deposited data

How the results depend on the processing

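No paired analysis was possible because each line has 1 array. The members' median difference lay between 0.185 and 0.24 for wild-type JMJD3 minus control under the 7 alternatives, between -0.0167 and 0.02 for mutant minus control, and between 0.16 and 0.19 for wild-type minus mutant. Medians were counted as moved past 0.05 on the log2 scale, counts past 1.5 times, and single members past the median gap between probe sets of a gene, a wide tolerance for small differences. By these limits 56 of 678 recomputed values moved, 3 with quantile normalization, 22 with the median over probe sets and 31 without shared probe sets, which leaves fewer genes.

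With quantile normalization, the complex III median was 0.2717 for wild-type JMJD3 minus control, and for wild-type minus mutant the complex II median was 0.0117 and the regulators' -0.175. With the median over probe sets, 5 members were higher with mutant JMJD3 than control by 1.3-fold, and 5 lower with wild-type than with mutant. The medians for wild-type JMJD3 minus control were then 0.11 in complex II, 0.27 for the mitochondrial ribosome and 0.25 for the tricarboxylic acid cycle, and complex III was at 0.1325 for mutant minus control. For wild-type minus mutant they were 0.27 in complex III, 0.07 in complex V, 0.235 for the mitochondrial ribosome and 0.075 for the tricarboxylic acid cycle.

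Without shared probe sets, wild-type JMJD3 gave 40 members above control and 3 lower by 1.3-fold, mutant JMJD3 gave 7 higher by 1.3-fold and 1 past 2-fold, and wild-type against mutant gave 35 above and 5 lower. The medians for wild-type JMJD3 minus control were 0.04 in complex II, 0.27 for the mitochondrial ribosome and 0.47 for the tricarboxylic acid cycle, and those for mutant minus control 0.46 in complex II, 0.115 in complex III and 0.21 for the regulators. For wild-type minus mutant they were 0.19 in complex I, -0.42 in complex II, 0.37 in complex III, 0.00 in complex V, 0.22 for the mitochondrial ribosome and -0.37 for the regulators, and 10 complex V members stayed over the floor. SDHC turned to -0.14 for wild-type JMJD3 minus control and -0.82 for wild-type minus mutant, and NDUFB1 to -0.05 for mutant minus control.

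Counting NDUFA4 and NDUFA4L2 with complex I was not run, since the annotation lists them as COXFA4 and COXFA4L2. With them and COXFA4L3 added to complex IV, a setting chosen after seeing the data, its medians were 0.19 for wild-type JMJD3 minus control, 0.00 for mutant minus control and 0.18 for wild-type minus mutant.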
